A study of Homo sapiens with 6 samples.

Results

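The circadian clock genes described here are 10 genes of the core transcription loops: CLOCK, BMAL1, PER1, PER2, PER3, CRY1, CRY2, NR1D1, NR1D2 and BHLHE40. They were taken by gene symbol from a table of 20388 genes, with BMAL1 found under its older symbol ARNTL, and all 10 were present. RNA was sequenced in 6 libraries of MHCC-97H, an established human hepatocellular carcinoma line labelled wild type and grown in medium with fetal bovine serum. The DMSO group held 3 libraries from cells given the solvent for 24 h. The GK921 group held 3 libraries from cells kept for the same 24 h in GK921, which inhibits the enzyme TGM2 (transglutaminase 2), at 2 µM. The design asks how the transcriptome of these liver cancer cells differed after exposure to the inhibitor, and the clock genes are followed here as 1 pathway within it. A single cell line was used at 1 time point, and no source used here says that the cells were synchronised, so neither the phase nor the amplitude of a rhythm was measured.

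The mammalian clock is a feedback loop of transcription. CLOCK and BMAL1 pair through their bHLH-PAS domains and activate genes with E-boxes in their promoters, among them the PER, CRY, NR1D and BHLHE40 genes, whose products then repress transcription. PER and CRY proteins enter the nucleus and inhibit CLOCK and BMAL1, while NR1D1 and NR1D2 (REV-ERBα and REV-ERBβ) are heme-binding nuclear receptors that repress BMAL1 through ROR elements. In liver the same loops drive daily rhythms of lipid, glucose and bile acid genes.

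The promoter sequences that these loops are known to read are shown first. RefSeq promoter windows (GRCh38.p14, from 250 bases before to 50 after a start site) were matched for all 10 genes, 15 windows in all. Both strands were searched for 5 motifs. The E-box, bound by CLOCK with BMAL1 and by BHLHE40, is CACGTG. Its variant, the E′-box, is CACGTT on 1 strand, which reads AACGTG on the other. The D-box, bound by DBP and NFIL3, is TTATGTAA, or TTACATAA on the other strand. The core of the ROR element, bound by ROR and REV-ERB receptors, was searched as TAGGTCA. The cAMP response element is TGACGTCA. No printed match overlaps another. In the longer stretches that follow, none of which overlaps an exon of GENCODE release 29, capitals mark the matches.
PER1: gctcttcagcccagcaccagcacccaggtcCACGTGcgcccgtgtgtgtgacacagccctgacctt
PER2: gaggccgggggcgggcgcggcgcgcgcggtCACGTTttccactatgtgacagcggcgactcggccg
NR1D2: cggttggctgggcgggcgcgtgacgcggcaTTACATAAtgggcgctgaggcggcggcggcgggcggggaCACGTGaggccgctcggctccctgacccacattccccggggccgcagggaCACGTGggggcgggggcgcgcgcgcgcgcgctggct
CLOCK: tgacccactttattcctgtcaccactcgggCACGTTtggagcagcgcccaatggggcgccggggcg
PER3: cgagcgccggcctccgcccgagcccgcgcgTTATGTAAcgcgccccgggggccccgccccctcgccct
These lie at chr17:8152542-8152607 (minus strand) for PER1, chr2:238288772-238288837 (minus) for PER2, chr3:23945897-23946051 (plus) for NR1D2, chr4:55546084-55546149 (minus) for CLOCK and chr1:7784084-7784151 (plus) for PER3. The PER1 E-box begins 173 bases and the PER2 E′-box 197 bases before the start site. NR1D2 holds 2 E-boxes, 155 and 105 bases before its start, and a D-box.

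The remaining genes are shown by the match and its nearest bases only, since the matches of CRY1, CRY2, BMAL1 and BHLHE40 lie in or beside an exon in GENCODE release 29.
NR1D1: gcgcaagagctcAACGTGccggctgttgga
CRY1: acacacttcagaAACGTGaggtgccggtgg
CRY2 (E′-box): acacatggtaggAACGTGagggggcgggcc
CRY2 (ROR element core): ttgcggcgtcaTAGGTCActgggcgggct
BHLHE40: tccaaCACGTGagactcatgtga
BMAL1: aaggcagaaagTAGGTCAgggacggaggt
These lie at chr17:40100740-40100769 (minus strand) for NR1D1, chr12:107093621-107093650 (minus) for CRY1, chr11:45847275-45847304 and chr11:45847399-45847427 (plus) for CRY2, chr3:4979187-4979209 (plus) for BHLHE40 and chr11:13277809-13277837 (plus) for BMAL1. The BMAL1 match begins 31 bases after the start site, in 1 of its 2 windows. An E-box or E′-box was found in 8 of the 10 genes and 8 of their 15 windows, against 14.5% of 27305 genes and 12.2% of 35116 promoter windows of the genome. By motif, 3 of the 10 genes held an E-box (8.77% of all genes, 7.26% of all windows) and 5 an E′-box (6.44% and 5.34%). A D-box was held by 2 (1.13% and 0.886%), the ROR element core by 2 (2.29% and 1.85%) and the cAMP response element by none (2.25% and 1.85%). The E′-box was matched in CLOCK, which was lower after GK921, and in PER2, CRY1, CRY2 and NR1D1, which were higher. Whether a match goes with the direction of change was not tested. A match describes the letters and not a bound site.

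Levels are the deposited FPKM values, in which fragments are divided by transcript length and by the mapped total. Each library summed to between 821498 and 836182, and 13992 to 14433 genes were above 0. The sources used here do not give the number of reads. Steps between low values put the depth of the DMSO libraries at 0.87 to 1 of the deepest and that of the GK921 libraries at 0.768 to 0.864. Genes were tested with limma on log2(FPKM + 1) where their mean over the 6 libraries was at least 1 FPKM, and those with a Benjamini-Hochberg adjusted p under 0.05 over all 11573 tested genes are called higher or lower. The median tested gene was 0.16 higher after GK921 on this scale, so a log2 change is read against that shift. TGM2 mRNA averaged 42.1 ± 0.0265 FPKM in the DMSO group (SD, n = 3, as for each mean given here) and 42.6 ± 0.345 FPKM in the GK921 group, and was not called by limma (adjusted p = 0.71). Of 15 hepatocyte and liver cancer markers, 11 averaged under 1 FPKM in both groups, albumin and AFP included, while HNF4A, KRT8 and KRT18 were among those expressed. Of 12 markers of endothelial, fibroblast and white blood cells, 10 averaged under 1 FPKM in both groups, the others being PECAM1 and CD68. Whether the replicate libraries are from separate cultures is not stated, so the p-values refer to the spread among the libraries alone, and that spread may be technical.

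Of the 10 clock genes, 9 were higher and 1, CLOCK, was lower after GK921. Among all tested genes 46.8% were called higher and 29.2% lower, so a call by itself is common in these data. The 3 GK921 values lay above the 3 DMSO values for 9 of the genes and below them for CLOCK, where 48.0% and 30.0% of tested genes showed such separation in the same directions. Against a 1.2-fold change (limma's treat test), 9 were still called higher and none lower, with 31.1% and 18.4% of tested genes so called. The log2 changes had a median of 0.97 over the 10 genes and 0.16 over all tested genes. In bulk RNA, a change of a transcript in each cell and a change in the share of cells that hold it cannot be told apart.

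**Figure D1:**
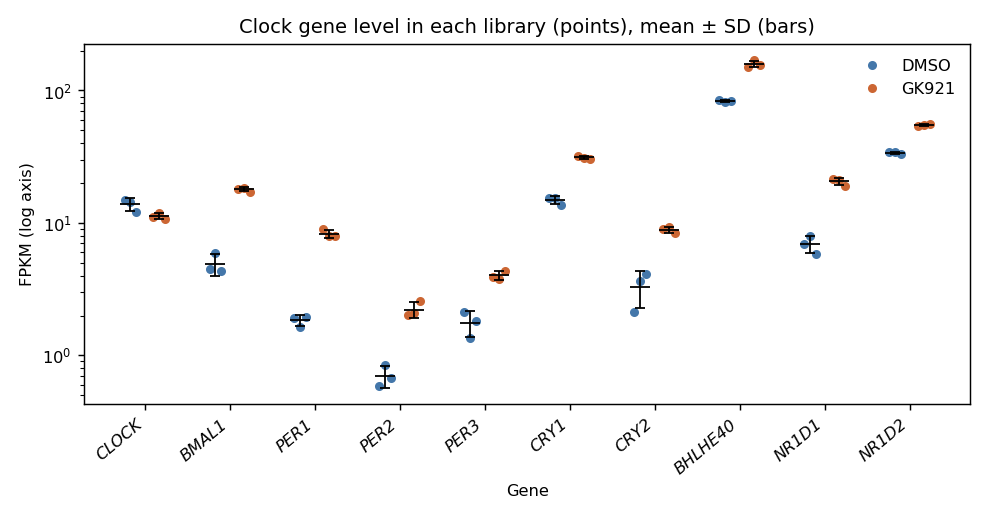
FPKM (log axis) of the 10 clock genes in each of the 3 DMSO libraries (blue points) and 3 GK921 libraries (orange points), with the group mean and SD as black bars. The orange points lie above the blue ones for 9 genes and below them for CLOCK.

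The activators moved apart. BMAL1 (chromosome 11, 13276652 to 13387266, plus strand, GENCODE release 29 on GRCh38, as for each gene position), the partner that is rhythmic in most tissues, was at 4.47, 5.94 and 4.31 FPKM with DMSO and at 18.15, 18.45 and 17.22 FPKM with GK921. The 3 GK921 libraries were close to each other, and the groups were far apart. The mean rose 3.66-fold, a log2 change of 1.69 ± 0.11 (SE, limma adjusted p = 9.29e-07), and 2.55% of tested genes had a larger change. CLOCK (chromosome 4, 55427903 to 55547138, minus strand), the partner with histone acetyltransferase activity, was at 14.99, 14.34 and 12.09 FPKM in DMSO and at 11.13, 11.81 and 10.65 FPKM after GK921. The groups did not overlap, but the third DMSO library and the second GK921 library nearly met. The mean went from 13.8 ± 1.52 to 11.2 ± 0.583 FPKM, a 1.23-fold fall with a log2 change of -0.28 ± 0.089 (limma adjusted p = 0.0196). That call was lost without the first DMSO library (limma adjusted p = 0.0754), the second DMSO library (0.0644) or the third GK921 library (0.0627), and against a 1.2-fold change (treat adjusted p = 0.663). Over the alternatives other than treat its limma adjusted p ran from 0.00178 to 0.0754. With the libraries rescaled by median ratios the CLOCK change was -0.43 (limma adjusted p = 0.00219). CLOCK lies across TMEM165 on the opposite strand, with 76 shared exon bases, and TMEM165 fell 3.02-fold, from 75.5 ± 1.30 to 25.0 ± 2.06 FPKM (limma adjusted p = 3.66e-08). The sources used here do not say whether strand was used in counting, and the part of those reads in the CLOCK values was not tested.

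The order of the partners was reversed. The ratio of BMAL1 to CLOCK was 0.298, 0.414 and 0.356 in the DMSO libraries, and 1.63, 1.56 and 1.62 in the GK921 libraries. CLOCK was the more abundant partner in each DMSO library and BMAL1 in each GK921 library. This ratio was chosen after the values had been seen and is given with no test. NPAS2, which can stand in for CLOCK, was at 28.67, 31.17 and 32.23 FPKM in DMSO and at 39.62, 39.69 and 39.69 FPKM after GK921. It rose 1.29-fold (log2 change 0.36 ± 0.054, limma adjusted p = 0.000237), a call lost against a 1.2-fold change (treat adjusted p = 0.0951). BMAL2 (listed as ARNTL2), a relative of BMAL1, rose 1.56-fold, from 29.1 ± 1.96 to 45.2 ± 0.911 FPKM (log2 change 0.62 ± 0.057, limma adjusted p = 9.72e-06). In DMSO and after GK921 alike, NPAS2 and BMAL2 were each more abundant per length than CLOCK or BMAL1.

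The 3 PER genes, the inhibitors of the CLOCK and BMAL1 pair whose turnover sets the period, were low in DMSO and all rose. PER1 (chromosome 17, 8140472 to 8156506, minus strand) was at 1.93, 1.65 and 1.95 FPKM in DMSO and at 8.92, 7.97 and 8 FPKM after GK921. Its groups were far apart, and the 4.5-fold rise of this E-box gene was the largest ratio of means among the 10 genes (log2 change 1.71 ± 0.10, limma adjusted p = 5.45e-07). PER2 (chromosome 2, 238244038 to 238290102, minus strand) was at 0.59, 0.85 and 0.67 FPKM in DMSO and at 2.01, 2.08 and 2.57 FPKM after GK921. It rose 3.16-fold, with a log2 change of 0.92 ± 0.14 (limma adjusted p = 0.000312). Among the 10 genes it was the only one with a DMSO mean below 1 FPKM, so it entered the test through its GK921 values, and the added 1 on the log scale understates its change. PER3 (chromosome 1, 7784320 to 7845177, plus strand) was at 2.12, 1.36 and 1.83 FPKM in DMSO and at 3.9, 3.79 and 4.34 FPKM after GK921. Its rise was 2.27-fold (log2 change 0.86 ± 0.13, limma adjusted p = 0.000322). PER3 shares 868 exon bases with UTS2 on the opposite strand, which went from 1.78 ± 0.65 to 2.99 ± 0.647 FPKM (limma adjusted p = 0.0329), and the part of those reads in the PER3 values was not tested. Summed over the 3 genes, PER transcripts made up 4.64, 3.86 and 4.45 FPKM in DMSO and 14.83, 13.84 and 14.91 FPKM after GK921.

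The cryptochromes, which in mammals are repressors that bind CLOCK and BMAL1 directly, also rose. CRY1 (chromosome 12, 106991364 to 107093829, minus strand) was at 15.49, 15.5 and 13.77 FPKM in DMSO and at 32.25, 30.78 and 30.53 FPKM after GK921. Its values were tight in both groups, and it rose 2.09-fold (log2 change 1.02 ± 0.064, limma adjusted p = 7.87e-07). CRY2 (chromosome 11, 45847118 to 45883248, plus strand) was at 2.14, 3.66 and 4.11 FPKM in DMSO and at 8.93, 9.27 and 8.35 FPKM after GK921. The first DMSO library was the lowest, which gave CRY2 the widest spread of the 10 genes in DMSO (a coefficient of variation of 31.3%). CRY2 rose 2.68-fold (log2 change 1.22 ± 0.17, limma adjusted p = 0.000156), and without that library its log2 change was 1.01.

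BHLHE40 (chromosome 3, 4979116 to 4985323, plus strand), also called DEC1, is a repressor that competes for E-boxes and is known to respond to hypoxia, growth signals and stress. It was the most abundant of the 10 genes in both groups, at 84.62, 81.82 and 83.67 FPKM in DMSO and at 151.55, 168.75 and 155.71 FPKM after GK921. The rise was 1.9-fold (log2 change 0.92 ± 0.044, limma adjusted p = 1.45e-07). Its close relative BHLHE41 (DEC2) was scarce, at 0.62, 0.78 and 0.58 FPKM in DMSO and at 2.5, 0.95 and 2.43 FPKM after GK921. Its second GK921 library lay near the DMSO values, and limma called the rise (log2 change 0.79 ± 0.23, adjusted p = 0.0122), though not after quantile normalization (0.0684) or against a 1.2-fold change (0.0521). Its limma adjusted p ran from 0.00043 to 0.0684 over 16 alternatives. CIART, an E-box repressor also known as CHRONO, rose from 0.537 ± 0.238 to 1.69 ± 0.457 FPKM (limma adjusted p = 0.0032). BHLHE41 and CIART had DMSO means below 1 FPKM and, like PER2, were tested through their GK921 values.

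In the loop that controls BMAL1, both REV-ERB genes rose together with their target. NR1D1 (chromosome 17, 40092787 to 40100725, minus strand) was at 6.97, 7.92 and 5.86 FPKM in DMSO and at 21.41, 21.16 and 19.15 FPKM after GK921. The lowest GK921 library was far above the highest DMSO library, and the rise was 2.97-fold (log2 change 1.45 ± 0.10, limma adjusted p = 1.71e-06). NR1D1 shares 263 exon bases with THRA, the thyroid hormone receptor gene on the opposite strand, which fell from 7.11 ± 0.728 to 4.43 ± 0.701 FPKM (limma adjusted p = 0.00179); the part of those reads in the NR1D1 values was not tested. NR1D2 (chromosome 3, 23945260 to 23980618, plus strand) was at 34.1, 34.09 and 33.18 FPKM in DMSO and at 53.7, 54.82 and 55.66 FPKM after GK921. Its values were tight in both groups, and it had the smallest rise of the 9, at 1.62-fold (log2 change 0.68 ± 0.042, limma adjusted p = 6.79e-07). NR1D2 is the gene with 2 E-boxes and a D-box in its printed stretch. NFIL3, which represses D-box genes and belongs to the same loop, rose 3.95-fold, from 28.01 ± 0.881 to 110.7 ± 5.15 FPKM (log2 change 1.94 ± 0.048, limma adjusted p = 2.73e-09).

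**Figure D2:**
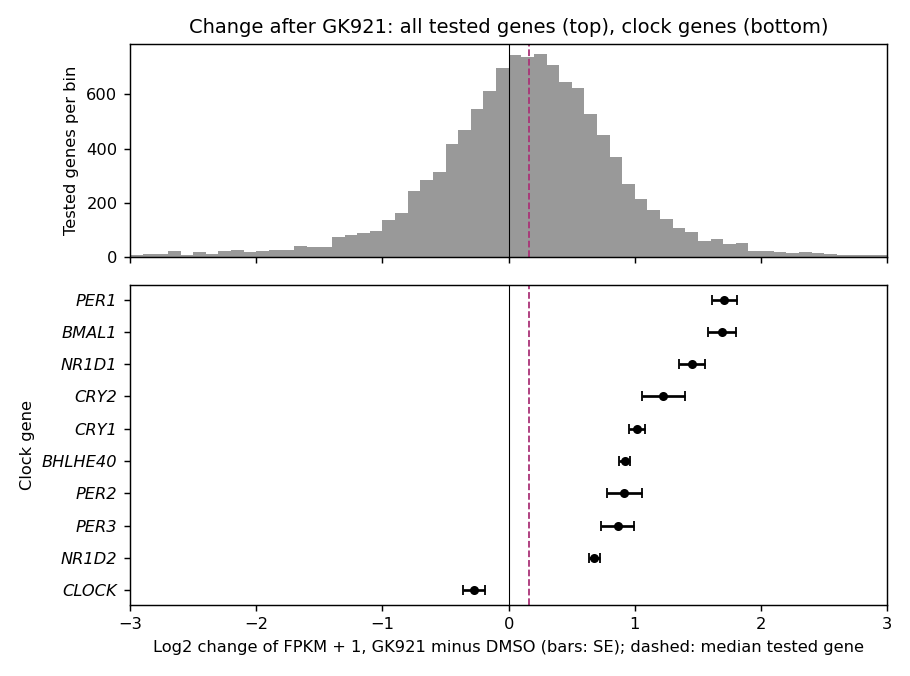
The upper panel counts tested genes by log2 change of FPKM + 1 (GK921 minus DMSO, bins of 0.1; of 11573 genes, 29 below -3 and 27 at 3 or above lie off the axis), and the lower panel gives the 10 clock genes with their SE. The dashed line is the median tested gene at 0.16; CLOCK lies to its left and the other 9 genes lie to its right, from NR1D2 at 0.68 to PER1 at 1.71.

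The order of the 10 levels, which FPKM allows since it is per length, was mostly kept. BHLHE40, NR1D2 and CRY1 were the 3 most abundant in both groups, and CRY2, PER1, PER3 and PER2 were the 4 least abundant in both, in that order. CLOCK went from the 4th to the 6th place, behind NR1D1 and BMAL1. In DMSO the ranges of neighbours overlapped for CRY1 with CLOCK, NR1D1 with BMAL1 and PER1 with PER3. After GK921 they overlapped for CRY2 with PER1 only.

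Related genes can be compared by their ratio within a library, which does not depend on how libraries are scaled. 8 pairs were compared by exact two-sided permutation tests, in which 3 libraries against 3 cannot give a p below 0.1. The groups were separate for 4 pairs, each with an exact permutation p of 0.1 (0.2 adjusted over the 8 pairs), so none passed a threshold of 0.05. Separate groups are common in these data: 48.0% of single tested genes lay wholly higher and 30.0% wholly lower after GK921. The share over all gene pairs was not computed, so the count of 4 is not read as a result about these pairs. The PER1 to PER3 ratio was 0.91, 1.21 and 1.07 in DMSO and 2.29, 2.1 and 1.84 after GK921, 1.96-fold higher. The NR1D1 to NR1D2 ratio was 0.204, 0.232 and 0.177 in DMSO and 0.399, 0.386 and 0.344 after GK921, 1.85-fold higher. NR1D2 nevertheless stayed the more abundant of the REV-ERB genes in every library. The BMAL1 to BMAL2 ratio was 0.145, 0.203 and 0.16 in DMSO and 0.395, 0.417 and 0.379 after GK921, 2.37-fold higher. The CLOCK to NPAS2 ratio was 0.523, 0.46 and 0.375 in DMSO and 0.281, 0.298 and 0.268 after GK921, 1.59-fold lower. The values of the groups overlapped for PER1 to PER2, PER2 to PER3, CRY1 to CRY2 and BHLHE40 to BHLHE41. CRY1 exceeded CRY2 3.35-fold to 7.24-fold in DMSO and 3.32-fold to 3.66-fold after GK921. The log2 difference of -0.41 ± 0.33 (SE) between the groups went to -0.095 without the first DMSO library, the one in which CRY2 was lowest.

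**Figure D3:**
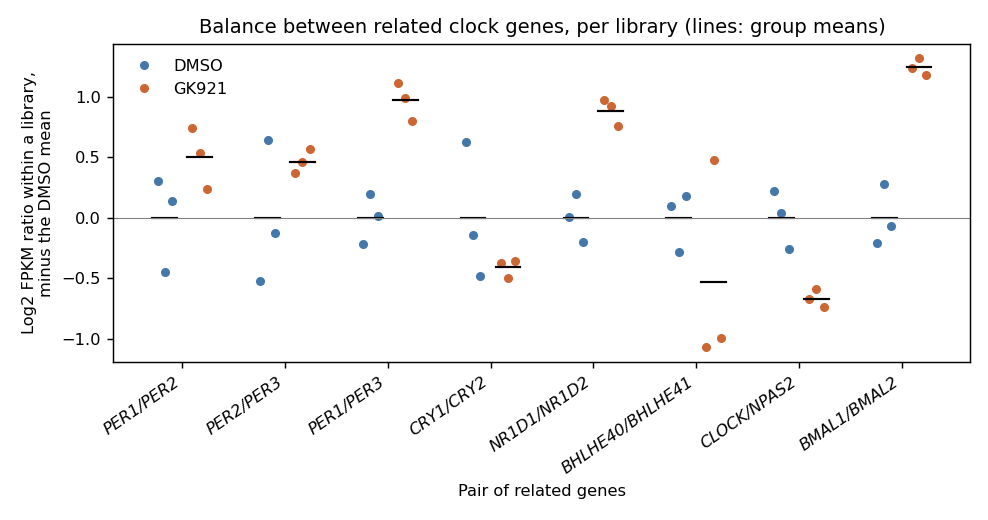
Log2 FPKM ratio of 8 pairs of related clock genes within each library, with the DMSO mean of each pair set to 0 (points: libraries, black lines: group means). The GK921 points are separate from the DMSO points for PER1 to PER3, NR1D1 to NR1D2, CLOCK to NPAS2 and BMAL1 to BMAL2.

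Known output genes of the clock moved in both directions. Of 13 listed genes 10 could be tested: 6 were higher and 1 lower, 3 had no call, and the median log2 change was 0.64. Among all tested genes 46.8% were higher and 29.2% lower, with a median log2 change of 0.16. The share of rises was not far from the general one, while the share of falls was smaller and the median higher. No set test was run on these 10 genes. DBP, the D-box activator that CLOCK and BMAL1 drive directly, was at 1.06, 0.95 and 1.59 FPKM in DMSO and at 2.23, 2.01 and 3.31 FPKM after GK921 (2.1-fold, limma adjusted p = 0.00795). That call was lost after quantile normalization (0.0589) and against a 1.2-fold change (0.0522), and the adjusted p ran from 0.00301 to 0.0589 over 16 alternatives. TEF, another activator of that family, was at 2.99 ± 0.0872 and 3.87 ± 0.924 FPKM and was not called (limma adjusted p = 0.128). NAMPT, the rate-limiting enzyme of NAD salvage, rose 2.27-fold from 908 ± 10.3 to 2066 ± 20.4 FPKM (limma adjusted p = 4.44e-10). KLF10 rose 2.26-fold, NOCT (nocturnin) 1.77-fold and PPARA, a nuclear receptor of fatty acid oxidation, 1.61-fold. KLF9, a clock output that also responds to glucocorticoids, went from 0.947 ± 0.211 to 5.49 ± 0.32 FPKM (5.8-fold, limma adjusted p = 1.84e-06); like PER2, it was tested through its GK921 values. WEE1, the kinase that holds back mitotic entry and a known E-box target, fell from 24.3 ± 0.411 to 18.8 ± 0.363 FPKM (log2 change -0.35 ± 0.052, limma adjusted p = 0.000213), a call lost against a 1.2-fold change (treat adjusted p = 0.105).

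Genes of enzymes that modify and degrade clock proteins went both ways. Most on this list act on PER or CRY, but SIAH2, HUWE1 and FBXW7 are ubiquitin ligase genes linked to other clock proteins. Of 18 in the table, 8 were higher, 6 lower and 4 without a call, near the 46.8% and 29.2% of all tested genes, and their median log2 change of 0.15 was near that of all tested genes. With median-ratio scaling, under which 36.8% of tested genes were higher and 37.3% lower, 4 of these genes were higher and 7 lower. The casein kinase 1 genes that phosphorylate PER changed little: CSNK1D was at 126.3 ± 5.02 and 142 ± 1.27 FPKM (log2 change 0.17). Its call was lost with that scaling (log2 change 0.0057, limma adjusted p = 0.899) and in 3 of 17 alternatives in all, treat included. Without treat its limma adjusted p ran from 0.00164 to 0.899. CSNK1E, at 6.38 ± 0.52 and 7.09 ± 1.30 FPKM, was not called (limma adjusted p = 0.389). CSNK1A1, at 96.2 ± 2.01 and 112 ± 2.94 FPKM, was called higher (limma adjusted p = 0.000527). That call was lost with median-ratio scaling (limma adjusted p = 0.25) and against a 1.2-fold change. BTRC, which targets PER proteins for degradation, rose 1.39-fold (limma adjusted p = 0.000644), a call lost against a 1.2-fold change (treat adjusted p = 0.0537). SIAH2, a ubiquitin ligase gene on this list, rose 2.35-fold, from 21.9 ± 0.323 to 51.4 ± 4.46 FPKM. The AMP-activated kinase genes PRKAA1 and PRKAA2, whose products phosphorylate CRY1, fell 1.23-fold and 1.46-fold, and the call of PRKAA1 was lost against a 1.2-fold change (treat adjusted p = 0.439).

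Transcripts of most cofactors that work with clock proteins were lower after GK921. Of 21 tested, 14 were lower and 6 higher, 1 had no call, and the median log2 change was -0.54. Among all tested genes 29.2% were lower and 46.8% higher, and with median-ratio scaling 37.3% and 36.8%. Transcripts of the paraspeckle proteins NONO, SFPQ and PSPC1, which associate with PER complexes, fell 1.71-fold, 2.26-fold and 2.12-fold. SFPQ was at 169.66, 167.17 and 167.4 FPKM in DMSO and at 72.71, 72.35 and 78.1 FPKM after GK921. TIMELESS, better known in mammals for its role at replication forks, fell 2.97-fold to 15.2 ± 0.595 FPKM. The heterochromatin methyltransferase gene SUV39H1 fell 4.09-fold and the RNA helicase gene DHX9 2.52-fold. The genes of corepressor parts used by the REV-ERB receptors split, with NCOR1 1.25-fold and TBL1X 2.03-fold higher and HDAC3 1.19-fold and TBL1XR1 1.33-fold lower. Against a 1.2-fold change the calls of NCOR1 (treat adjusted p = 0.278) and HDAC3 (0.936) were lost. SIRT1, an NAD-dependent deacetylase that acts on BMAL1 and PER2, rose 1.74-fold from 15.8 ± 1.00 to 27.6 ± 0.727 FPKM. Many of these cofactors serve general transcription, splicing or replication and are not specific to the clock.

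Of 10 tested genes of signals that reset the clock, 8 were higher and 2 lower (median log2 change 0.62), where 46.8% and 29.2% of all tested genes were. The cAMP pathway factors CREB1 and CREM rose 1.68-fold and 2.27-fold, and the CREB coactivator CRTC2 1.75-fold. The glucocorticoid receptor gene NR3C1 rose 1.61-fold. Of its known targets, TSC22D3 (GILZ) rose 3.67-fold, from 8.54 ± 1.31 to 31.4 ± 2.97 FPKM, whereas FKBP5 fell 2.04-fold, from 31.7 ± 2.95 to 15.5 ± 1.35 FPKM. HSF1, the heat shock factor, rose 1.49-fold. CRTC1, the other gene called lower, went from 4.46 ± 1.26 to 3.00 ± 0.121 FPKM with overlapping groups (limma adjusted p = 0.0475). That call was lost in 10 of 16 alternatives, treat included (treat adjusted p = 0.312). Without treat its limma adjusted p ran from 0.00149 to 0.168.

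**Figure D4:**
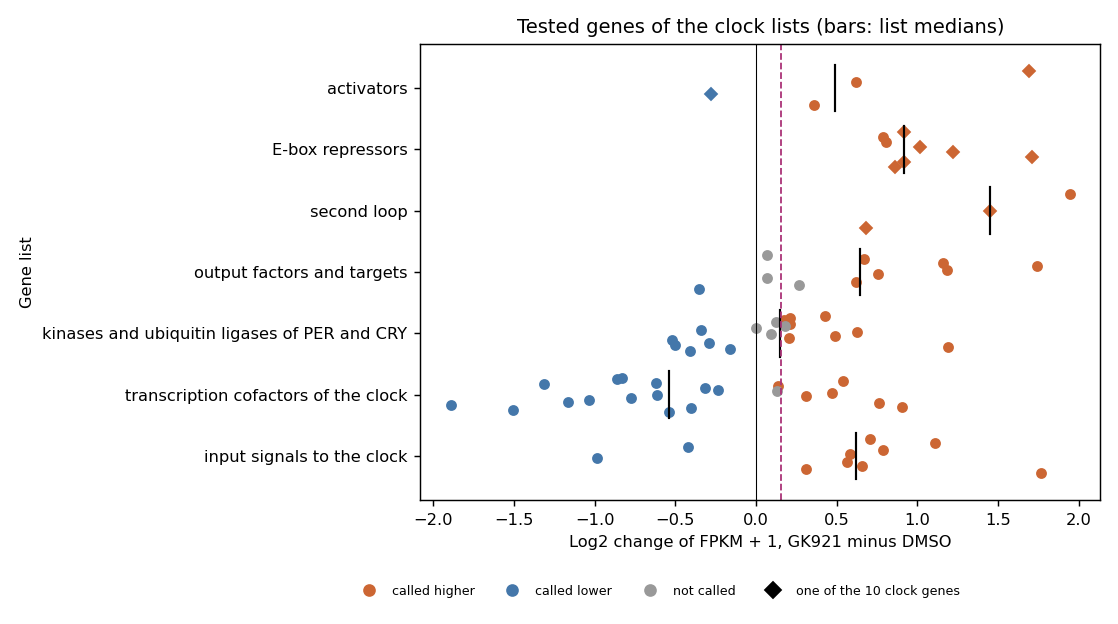
Log2 change of FPKM + 1 (GK921 minus DMSO) of each tested gene in 7 clock lists; diamonds are the 10 clock genes, colours give the limma call, black bars the list medians and the dashed line the median tested gene. The repressor and REV-ERB lists lie wholly to the right, and the cofactor list has its median at -0.54. The list labelled for PER and CRY also holds ubiquitin ligase genes linked to other clock proteins.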

How the data were processed

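The deposited FPKM values of 6 libraries were used as the authors made them, 1 column per library, per the file headers; their sums cannot tell FPKM from TPM. Tools listed without roles in the submitters' processing notes are HISAT2, featureCounts, edgeR and FastQC 0.11.5, with the build hg38. The annotation used for counting was not given in the sources used here. Log2(FPKM + 1) values were tested in limma 3.58.1 (R 4.3.3) with an intensity trend. Tested genes averaged 1 FPKM or more over the 6 libraries, with Benjamini-Hochberg adjustment over all 11573. Printed folds are ratios of mean FPKM. Ratios of related genes took no pseudocount and used exact permutation in scipy 1.17.1. On simulated libraries (11573 genes), 24% of genes changed 1.2-fold, 86% changed 1.5-fold and 94% changed 2-fold were recovered. In that simulation 50 genes changed at each fold, whereas 75.9% of tested genes were called in the data. An adjusted p depends on the share of changed genes, so these percentages do not carry over to the data. Depth was estimated from the peak of ratios between libraries of genes at 0.15 to 0.8 FPKM, and the 15 pairs of libraries departed from additivity by 0.0097 (log2) at most. Other settings tried were other pseudocounts and limits, 4 rescalings, no trend, treat, the replicate block and each library left out. The rule for named genes took the 10 clock genes and any gene of the 7 lists of textbook clock genes; TMEM165, UTS2 and THRA were added after their values were seen. The 10 genes and the lists were chosen with earlier results of these data known.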

Additional observations from a re-analysis of the deposited data

How the results depend on the processing

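The 9 rising clock genes kept their direction and their limma call under every alternative that could test them: 17 each, and 16 for PER2 and PER3, which a limit of 5 FPKM removes and so leaves 7 rises. The CLOCK log2 change ran from -0.44 to -0.21 over 17 alternatives and lost its call in 4, so the count of falls was 0 with treat and 0 to 1 when a library was left out. Its change was -0.36 to -0.22 over the left-out libraries, and -0.28 with treat (adjusted p = 0.663). Over all genes, treat called 3595 higher and 2135 lower, against 5411 and 3378 without it. Median-ratio scaling brought the median change from 0.16 to 0.0051 and the share of calls that were rises from 61.6% to 49.7%. On the wider lists without the 10 genes, 33 of 64 tested genes were higher and 23 lower, near the 46.8% and 29.2% of all tested genes, and 27 and 25 with that scaling. With it 6 list genes changed sign: EP300 (log2 change -0.019), which had a call before scaling, and ALAS1 (-0.094), POR (-0.098), CSNK1E (-0.022), FBXW11 (-0.064) and KDM5A (-0.031), which had none. After that scaling ALAS1 was called lower (limma adjusted p = 0.0457) and the others had no call. The BHLHE40 to BHLHE41 ratio changed sign with 1 added to each FPKM, from -0.53 to 0.13. Among the other list genes, CRTC1 lost its call under 10 alternatives and EP300 under 9 in addition to its change of sign. Same-numbered libraries deviated together by at most r = 0.0473, which shows no clear pairing but cannot exclude one. With the replicate block, the clock genes gave 9 rises and 1 fall, and CLOCK an adjusted p of 0.0161. Depth limits the genes near 1 FPKM, PER2 above all, and GK921 libraries were the shallower on the whole.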

Other observations

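Several clock genes lay below the expression limit and were not tested. Among them were ROR activators, which oppose the REV-ERB receptors: RORA was at 0.78, 0.56 and 0.85 FPKM in DMSO and at 1.42, 1.28 and 0.86 FPKM after GK921, and RORB was listed at 0 in all 6. The repressors of the same loop were measured well above these activators, at 39.0 to 42.0 FPKM for NR1D1 and NR1D2 summed in DMSO and 74.8 to 76.0 FPKM after GK921. HLF, the third activator of the DBP family, was at 0.2 ± 0.111 and 0.377 ± 0.328 FPKM. The liver output genes USP2 and GYS2 were under 0.3 FPKM in each library. SIK1, a kinase induced when light or cAMP resets the clock, was at 0.14, 2.03 and 2.68 FPKM in DMSO and at 0.09, 0.27 and 0.12 FPKM after GK921. The first DMSO library lay among the GK921 values, so the groups overlapped.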
